A study of Mus musculus with 12 samples.

Results

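Hippocampal expression after injection of aggregated amyloid beta (Aβ) at 10 μM was compared directly with that after 5 μM, 1 array for each concentration and 2 of the 12 arrays of the series. ICR mice are an outbred stock; the animals were males of 7 weeks that received 3 μL of Aβ1–42, aggregated over 7 days, into the lateral ventricle, and the tissue was taken 14 days later. RNA of 3 animals was pooled for each array, so the spread between animals is not known, every ratio below compares 2 pools, and no test was made. Arrays of vehicle-injected mice were not analysed here, so a ratio does not say which pool departs from untreated tissue. The other ICR hippocampus arrays came from mice given streptozotocin (STZ) or scopolamine. Streptozotocin was given at 2.5 or 3 mg/kg by the same route 14 days earlier, and scopolamine at 1 mg/kg intraperitoneally 30 min earlier. These arrays are used below for the range of each gene and for means of lists. The 2 streptozotocin arrays are also compared with each other. The remaining arrays of the series hold cortex of aged mice and hippocampus of NCSTN, MAPT, and 5×FAD transgenic mice.

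Aβ1–42 is the longer and more readily aggregating product of the amyloid precursor protein, and peptide placed in the ventricle reaches the hippocampus through the cerebrospinal fluid and the tissue that lines it. Microglia take it up and can respond with chemokines, interferon-induced genes, and antigen presentation. The hippocampus lies beside the choroid plexus, the meninges, the fimbria with its myelinated axons, and the habenula, a small nucleus next to the midline ventricle whose medial part holds cholinergic neurons. A dissected hippocampus can therefore carry RNA of its neighbours, and genes that mark each of them were counted beside the genes of the response.

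Values are log2 processed signals of the scanner, quantile normalized over the 12 arrays, with the probes of a gene averaged. A gene was used where the scanner software flagged at least 1 of its probes as well above background on both arrays, which held for 14702 of the 20886 genes on the array (70.4%). The 2 arrays lay close together: the median log2 ratio of 10 over 5 μM was 0.01, its quartiles were -0.12 and 0.13, and 92.9% of genes lay within 0.5 of 0. At least 2-fold higher at 10 μM were 108 genes (0.735%) and at least 2-fold lower were 85 (0.578%), together 1.31%. At 3-fold the counts were 37 and 26, and at 4-fold 14 and 10. The deposited matrix of the same 2 arrays, whose median ratio is -0.13, gave 35 higher and 88 lower, so that 28.5% of its calls were higher against 56.0% here, and 45.9% after its median was set to 0. For comparison, the 2 streptozotocin arrays, 3 against 2.5 mg/kg, differed by 2-fold in 251 of 14487 genes (1.73%), with 184 higher (1.27%) and 67 lower (0.462%) at the larger dose. Just inside the threshold lay Marveld3, at 5.34 with 5 μM and 6.34 with 10 μM, and Fmod, at 10.56 and 9.56, and just outside it Lrrc55, with a log2 ratio of -0.998, and Alas2, with 0.997.

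**Figure D1:**
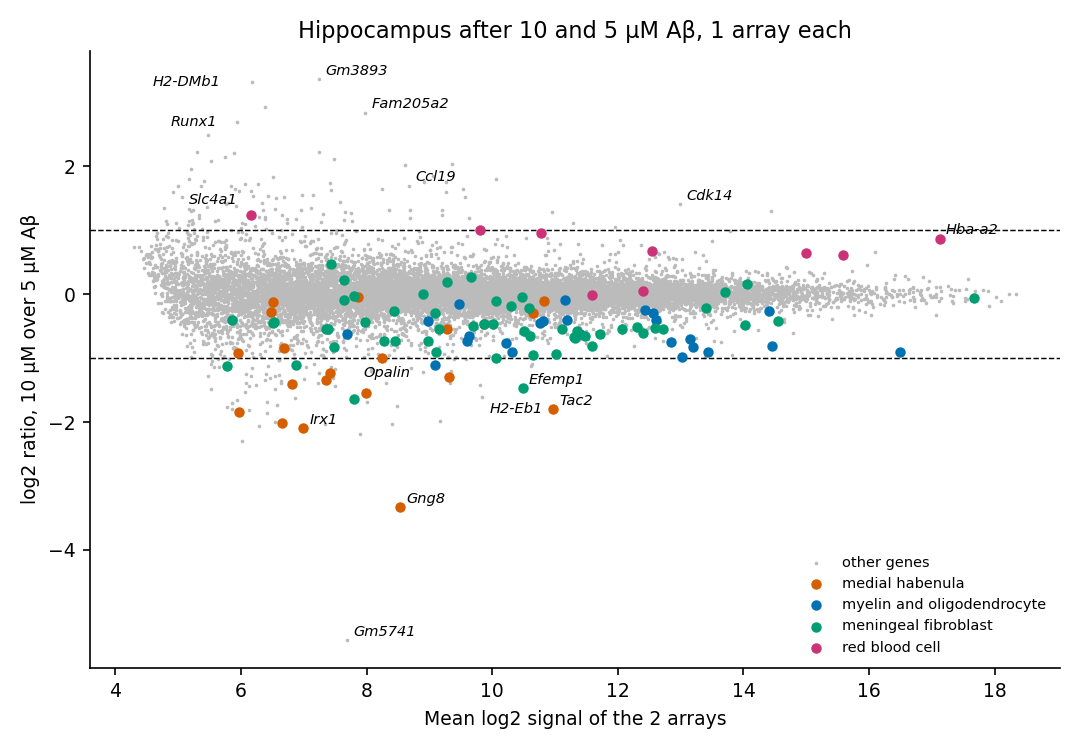
Log2 ratio of 10 over 5 μM Aβ (vertical axis) against the mean log2 signal of both arrays (horizontal axis), 1 point for each of 14702 genes, with 4 gene lists coloured and dashed lines at 2-fold. Habenula genes reach from -3.33 (Gng8) to just below 0, myelin and meningeal genes lie mostly between 0 and -1, and red blood cell genes lie near or above 0.

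Dim genes made up much of the calls. In 64 of the 108 genes higher at 10 μM (59.3%) and 40 of the 85 lower (47.1%), the dimmer array was under a log2 signal of 6, against 10.1% of all genes with either array under 6. Only 18 of the 193 called genes had 2 or more usable probes. Repeated spots of the same probe, 10 on an array, had a median SD of 0.06 at 5 μM and 0.05 at 10 μM, which covers the hybridization within an array and not the animals, the dissection, or the labelling. Both arrays carried the same sex-linked pattern: the X-inactivation transcript Xist was not well above background on either, and the Y-linked helicase gene Ddx3y read 10.57 at 5 μM and 10.61 at 10 μM.

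Markers of the hippocampal subfields were present on both arrays. Of 26 measured, Pou3f1, a transcription factor of CA1, read 12.54 and 12.53 at 5 and 10 μM, Rgs14, a marker of CA2, 12.79 and 12.90, and Prox1, the transcription factor of dentate granule cells, 8.04 and 8.21. Their median log2 ratio was 0.03. Fibcd1, a CA1 marker that encodes a chitin-binding receptor, was the only subfield gene past 2-fold, at 9.28 and 8.13 (-1.15). Both arrays thus held the markers of the labelled tissue, whereas markers of some neighbouring structures differed between them.

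Among these, genes of the medial habenula were lower at 10 μM. Gng8, a G protein gamma subunit restricted in the brain largely to this nucleus, read 10.20 at 5 μM and 6.87 at 10 μM, a 10.1-fold difference that was exceeded only by Gm5741 among the lower genes well above background on both arrays. It read 7.44 and 7.25 after streptozotocin and 8.24 after scopolamine, so the 5 μM array was the highest of the 5 ICR arrays and the 10 μM array the lowest. Tac2, the precursor of neurokinin B, read 11.86 at 5 μM and 10.06 at 10 μM (-1.80), with 9.90, 10.57, and 9.75 on the other arrays. Here the 10 μM value lay inside the range of the other arrays and the 5 μM value above it.

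Genes of acetylcholine neurons followed the same order. Slc18a3, the vesicular acetylcholine transporter, read 7.66 at 5 μM and 5.64 at 10 μM (-2.02). Chat, choline acetyltransferase, read 7.51 and 6.11 (-1.41). Chrnb4, the beta4 nicotinic subunit for which medial habenula neurons are known, read 8.03 and 6.80 (-1.24). Slc5a7, the choline transporter that supplies the same synthesis, was well above background at 5 μM only. That held for 856 genes, against 189 at 10 μM only. Slc18a3, Chat, Chrnb4, and Slc5a7 belong to 1 transmitter system, and all of them were highest on the 5 μM array. Chrna3, a nicotinic subunit gene of the thalamus and habenula list counted below, was well above background on neither array. Slc17a6, the vesicular glutamate transporter of thalamic and habenular neurons, read 9.97 and 8.66 (-1.30), but here the array of 2.5 mg/kg streptozotocin was as high, at 10.01.

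Transcription factors of the region were also lower at 10 μM. Irx1 read 8.03 at 5 μM and 5.94 at 10 μM (-2.10), and Irx3 read 6.88 and 5.05 (-1.84). Both encode Iroquois homeodomain proteins. Zic4, a zinc finger factor of the dorsal midline, was -1.55 and -1.12 on its 2 probes, which makes it the member of this group with a further probe in agreement. Pou4f1, the homeodomain factor that specifies habenular neurons, read 8.08 at 5 μM and was not well above background at 10 μM, where it was at least 11.2-fold lower. It was 3.98 and 4.39 after streptozotocin and 4.02 after scopolamine, so the 5 μM array stood alone among the ICR arrays.

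Counted by list, 4 of 17 measured genes of the thalamus and habenula list were at least 2-fold lower and none was higher, with a median of -0.40, against 0.578% lower and a median of 0.01 over all genes. In all 14 of the 17 were below 0, 7 of them by more than 0.5, against 3.69% of all genes. Of the members not named above, Rgs16 was at -0.82, Vav3 at -0.67, Tnnt1 at -0.40, Prkcd, a protein kinase C of thalamic relay neurons, at -0.30, and Lhx9, Synpo2, and Lef1 were at 0.09, 0.22, and 0.23. A list of 27 medial habenula genes was written after these values had been seen and is therefore no independent evidence. It had 20 measured on both arrays and 5 more at 5 μM only, the commoner case over all genes. All 20 were lower at 10 μM, 10 of them by at least 2-fold, with a median of -1.12. Their mean log2 signal was 8.58 at 5 μM and 7.45 at 10 μM, and it was 7.19, 7.42, and 7.59 on the 2 streptozotocin arrays and the scopolamine array. In RNA of pooled tissue, fewer cells of a type and less RNA per cell cannot be told apart, and the part that the dissection had in these ratios was not tested.

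**Figure D2:**
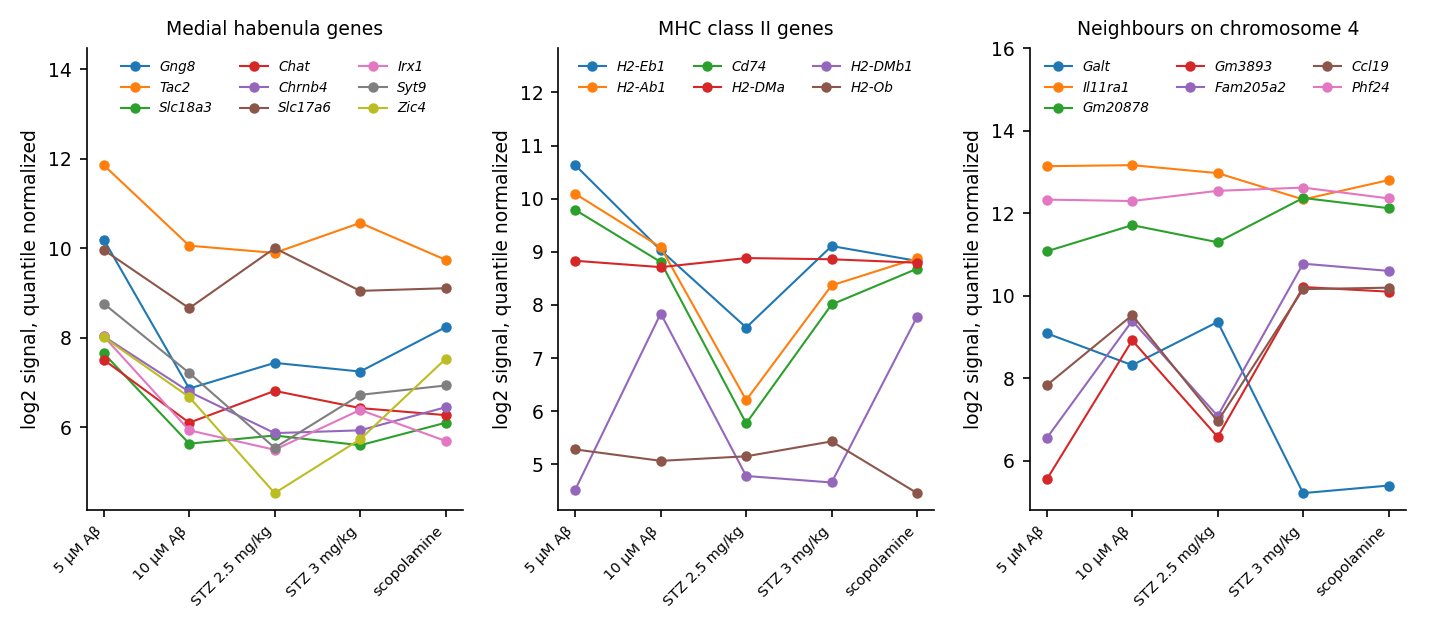
Quantile normalized log2 signal (vertical axes) of 9 medial habenula genes, 6 MHC class II genes, and 7 neighbouring genes of chromosome 4 on the 5 ICR hippocampus arrays (horizontal axis, 1 pooled array each; lines join the values of a gene). Gng8 reads 10.20 at 5 μM Aβ and 6.87 to 8.24 elsewhere. H2-DMb1 lies near 7.8 at 10 μM Aβ and with scopolamine and under 5 on the other arrays. Gm3893, Fam205a2, and Ccl19 move together, and their neighbours Gm13304 and Ccl27a are not drawn.

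Myelin genes shifted together and by little. Of 24 measured genes of the myelin and oligodendrocyte list, all 24 were lower at 10 μM, against 7097 of all 14702 genes. In the list 14 were lower by more than 0.5, against 3.69% of all genes, and the median was -0.64. Only Opalin, a transmembrane protein of oligodendrocytes, passed 2-fold, at 9.63 and 8.53 (-1.10). Mag, a myelin adhesion protein, read 13.88 at 5 μM and 12.98 at 10 μM (-0.90), and on the other ICR arrays 13.38, 12.99, and 13.89. For this gene the 10 μM array was the lowest of the 5, and the 5 μM array lay close to the scopolamine array. The exception in size was Mbp, myelin basic protein, at 11.20 and 11.11 (-0.09). Oligodendrocyte precursor genes had a median of -0.07 over 10 measured, and none was 2-fold apart. This shift was seen under each alternative processing tried, with medians between -0.76 and -0.60.

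Meningeal fibroblast genes were also lower at 10 μM. Of 55 measured, 49 were below 0, 30 of them by more than 0.5, against 3.69% of all genes. At least 2-fold lower were 5, against 0.578% of all genes, with none 2-fold higher and a median of -0.53. Past 2-fold were Spp1 (osteopontin), at 8.62 and 6.98, Efemp1 (fibulin-3), at 11.22 and 9.75, the organic cation exporter Slc47a1, at 6.33 and 5.22, the adhesion protein Cdh1, at 7.44 and 6.33, and the collagen-binding proteoglycan Fmod, at 10.56 and 9.56. Smaller ratios were those of Dcn (decorin), at -0.43, and of Ptgds, the prostaglandin D synthase of the meninges, at -0.05. The mean over the 55 genes was 10.30 at 5 μM and 9.81 at 10 μM, and both lay above the 7.39, 8.74, and 8.41 of the streptozotocin and scopolamine arrays. In this list, then, the arrays of Aβ differed less from each other than from the other ICR arrays. Choroid plexus genes, by contrast, had a median of 0.22 over 29 measured and none past 2-fold, with Ttr (transthyretin) at 17.35 and 17.41.

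Red blood cell genes were higher at 10 μM. Slc4a1, the anion exchanger of the red cell membrane, read 5.54 at 5 μM and 6.78 at 10 μM (1.24). Alas2, which starts haem synthesis in red cell precursors, read 9.30 and 10.30, just under the threshold. The globin genes Hba-a1, Hba-a2, Hbb-b2, Hbb-bs, and Hbb-bt were between 0.62 and 0.95, and they share sequence, so their probes may read more than one of them. Over 9 measured genes the median was 0.68. Brain endothelial genes had a median of -0.15 over 29, with none past 2-fold, so genes of the vessel wall did not move with those of blood.

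**Figure D3:**
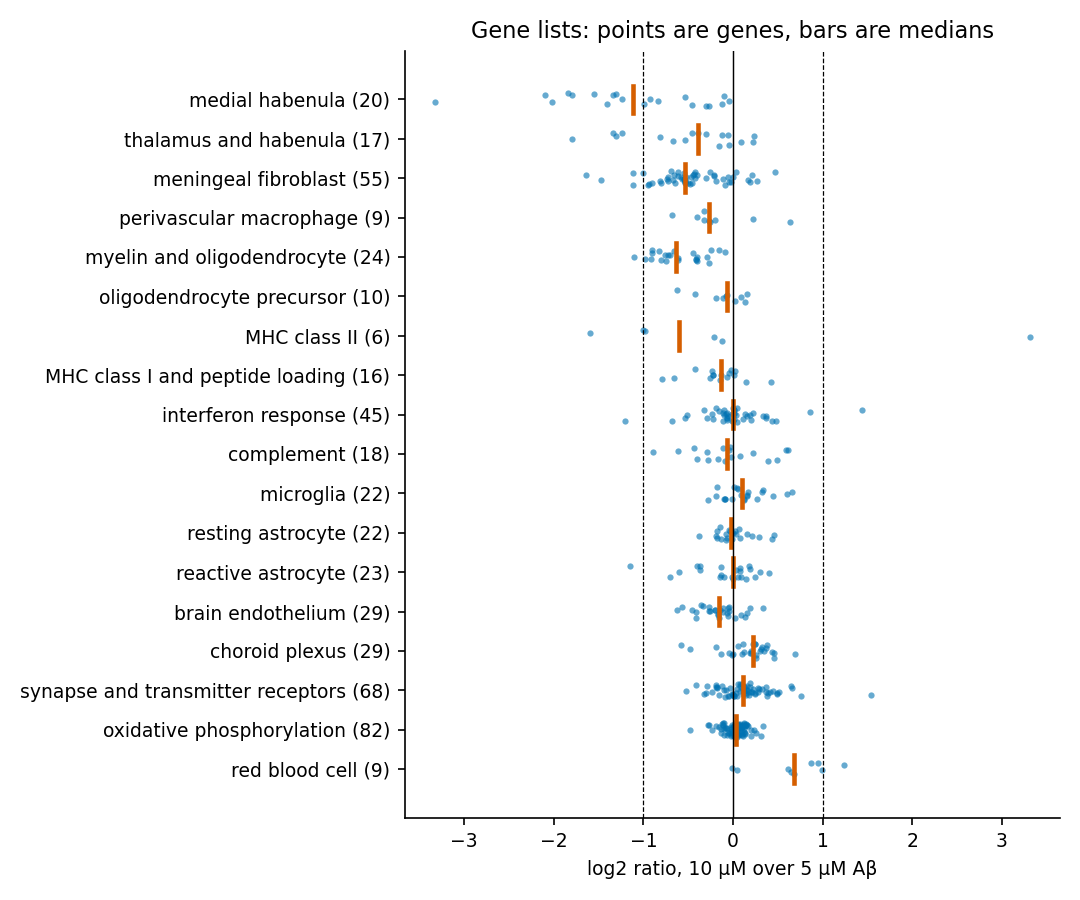
Log2 ratio of 10 over 5 μM Aβ (horizontal axis) of the members of 18 gene lists (rows, number measured in parentheses), with points for genes, bars for medians, and dashed lines at 2-fold. The medial habenula list, written after these values had been seen, lies lowest, with a median of -1.12. The red blood cell list lies highest, at 0.68, and the microglial, astrocyte, complement, interferon, and synapse lists lie between -0.07 and 0.11.

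Immune genes were called in both directions. Of the called genes grouped by function after their values were seen, 19 belonged to immunity and inflammation. At 10 μM 10 of them were higher and 9 lower, against 56.0% higher among all calls, and the group has no count of measured members. Whole lists stayed near 0: the median was 0.00 over 45 interferon response genes (1 higher, 1 lower), -0.07 over 18 complement genes (none past 2-fold), 0.10 over 22 microglial genes (none), 0.01 over 23 reactive astrocyte genes (1 lower), and -0.11 over 17 genes of disease-associated microglia (1 lower). Within complement, C1qa, C1qb, and C1qc, the chains of the recognition molecule C1q, were higher at 10 μM by 0.39, 0.59, and 0.62, whereas the proteases C1s1 and C2 lay at -0.89 and -0.61.

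Of 23 measured chemokine and cytokine genes 2 were past 2-fold, both higher at 10 μM, against 0.735% higher over all genes. Of the 23, 13 lay below 0, and the list median was -0.04. Cxcl10, an interferon-induced attractant of T cells, read 5.81 at 5 μM and 7.31 at 10 μM (1.50). On the other ICR arrays it read 3.61, 6.07, and 6.74, with 2 of these well above background, so the 10 μM array was the highest. Ccl19, a ligand of CCR7, read 7.83 and 9.53 (3.25-fold), and its 3 probes gave 2.11, 1.05, and 1.94. These probes may also read near-identical copies of the gene, as set out with its neighbours below. Ccl12, a monocyte attractant, was at 0.84 and Ccl2 at 0.46. Among the called genes lower at 10 μM were some of acute inflammation and neutrophils. S100a8 and S100a9, the subunits of calprotectin, read 6.77 and 8.85 at 5 μM and 5.12 and 7.17 at 10 μM (-1.65 and -1.68). Lcn2, an iron-siderophore binding protein of reactive astrocytes and neutrophils, was 2.22-fold lower (-1.15), and Hp, haptoglobin, 6.84 and 5.41 (-1.44). The neutrophil genes Mpo and Elane lay at 0.11 and -0.04, and the lymphocyte and neutrophil list had a median of -0.03 over 8 measured genes. The list of NF-kB and acute inflammation, which holds Lcn2, had 12 of 20 measured genes above 0, 1 past 2-fold and lower, and a median of 0.11.

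Ifit2 and Ifit3, adjacent genes on chromosome 19 that encode RNA-binding proteins induced by interferon, moved apart. Ifit2 read 6.86 at 5 μM and 8.29 at 10 μM (1.44), and Ifit3 read 9.94 and 8.74 (-1.20). Each rested on 1 probe. Across the ICR arrays the 2 genes had no common order, since scopolamine gave the highest Ifit2 (8.97) and the lowest Ifit3 (6.48). Lipa, the lysosomal acid lipase gene on the other side of Ifit2, read 8.55 and 9.87 (1.32). Because these neighbours and Cxcl10 are textbook interferon targets with different ratios here, their promoters are shown, 250 bases before the start site from RefSeq on build GRCm38.p6 and 5′ to 3′ on the strand of the gene. Capitals mark matches to the core of the interferon-stimulated response element, searched as GAAANNGAAA on both strands, which 2.98% of 32851 promoters hold.
Ifit2 (chr19:34550444-34550693, + strand): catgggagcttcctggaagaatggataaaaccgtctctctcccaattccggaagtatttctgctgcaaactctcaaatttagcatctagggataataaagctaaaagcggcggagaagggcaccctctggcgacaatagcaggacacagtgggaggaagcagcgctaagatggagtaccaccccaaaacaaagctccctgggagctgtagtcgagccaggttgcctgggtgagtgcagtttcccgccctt
Ifit3 (chr19:34583279-34583528, + strand): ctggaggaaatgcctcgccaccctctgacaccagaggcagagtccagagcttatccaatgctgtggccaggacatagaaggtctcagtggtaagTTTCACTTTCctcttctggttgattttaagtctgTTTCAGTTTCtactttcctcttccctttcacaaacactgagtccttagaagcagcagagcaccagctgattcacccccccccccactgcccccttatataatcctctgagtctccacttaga
Cxcl10 (chr5:92348890-92349139, - strand): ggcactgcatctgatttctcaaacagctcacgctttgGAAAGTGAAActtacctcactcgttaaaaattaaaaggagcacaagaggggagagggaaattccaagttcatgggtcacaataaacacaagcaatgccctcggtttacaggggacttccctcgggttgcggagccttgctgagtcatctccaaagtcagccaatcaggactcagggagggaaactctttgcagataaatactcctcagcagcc
Ifit3 held 2 matches, 156 and 122 bases before the start, and Cxcl10 1 match at 213 bases. Ifit2 had none in this window at either of its 2 annotated starts, which says only that these letters are not there. Genes with a match thus stood on both sides, Cxcl10 higher and Ifit3 lower at 10 μM.

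Of 6 measured MHC class II genes, which present antigen taken up by microglia and macrophages, 5 were below 0 and 1 above. H2-Eb1, a beta chain, read 10.63 at 5 μM and 9.03 at 10 μM (-1.60). H2-Ab1, the other classical beta chain, read 10.09 and 9.08, and its 2 probes were at -0.95 and -1.07. Cd74, the invariant chain that escorts class II molecules, read 9.79 and 8.81 (-0.98). On the other ICR arrays Cd74 read 5.77, 8.01, and 8.68, below both Aβ arrays. H2-DMb1, a chain of the chaperone that loads peptide, ran the other way and further, at 4.52 and 7.84 (3.32) on 1 probe. It read 4.78 and 4.66 after streptozotocin and 7.78 after scopolamine, and was well above background on 2 of these arrays. Its 5 values fell at 2 levels, with the Aβ arrays on different ones. Its partner H2-DMa did not share this, at 8.83 and 8.71. H2-Aa, not among the 6, was well above background at 10 μM only. Of the 6 class II genes measured 1 was at least 2-fold higher and 2 were lower, against 0.735% and 0.578% of all genes. The list median was -0.60 and ran from -0.99 to -0.05 under the alternatives with the genes that each kept. Class I genes had a median of -0.14 over 16. Perivascular macrophage genes, among them Mrc1 at -0.27 and Lyve1 at -0.68, had a median of -0.27 over 9. The promoters of H2-Eb1 and H2-DMb1 are shown because their ratios were opposite, with capitals at matches to ATTGG, the inverted CCAAT box that class II promoters carry as their Y box, on either strand; 33.8% of all promoters hold it.
H2-Eb1 (chr17:34305617-34305866, + strand): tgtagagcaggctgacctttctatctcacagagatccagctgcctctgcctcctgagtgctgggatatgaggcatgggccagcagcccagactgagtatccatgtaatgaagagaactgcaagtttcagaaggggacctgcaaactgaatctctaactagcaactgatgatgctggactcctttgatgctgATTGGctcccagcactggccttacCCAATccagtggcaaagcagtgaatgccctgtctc
H2-DMb1 (chr17:34152941-34153190, + strand): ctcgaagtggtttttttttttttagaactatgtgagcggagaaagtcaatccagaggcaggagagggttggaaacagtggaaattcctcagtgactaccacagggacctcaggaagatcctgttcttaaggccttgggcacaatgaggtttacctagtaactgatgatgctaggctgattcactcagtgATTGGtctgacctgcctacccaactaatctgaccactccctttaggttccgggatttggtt
Both carried a match at a like distance, 59 bases before the start in H2-Eb1, with a further one at 35, and 61 bases in H2-DMb1.

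In a group of neighbours on chromosome 4, 3 genes shared 1 pattern over the ICR arrays. Gm3893 read 5.55 at 5 μM and 8.92 at 10 μM (3.37), the largest of the ratios above 0, and 6.58, 10.21, and 10.10 with streptozotocin at 2.5 and 3 mg/kg and with scopolamine. Fam205a2 read 6.55 and 9.39 (2.84), and 7.09, 10.78, and 10.60. Ccl19, described above, lies next to Fam205a2 in the gene order and read 6.96, 10.16, and 10.20 on the same arrays. All 3 were thus low at 5 μM and at 2.5 mg/kg streptozotocin and higher on the other arrays. Galt, an enzyme of galactose metabolism at the other end of the group, ran the opposite way, at 9.09 and 8.32 and then 9.37, 5.22, and 5.40, whereas Il11ra1 between them was at 0.02 and Phf24 at -0.03. Gm13304, placed between Gm3893 and Fam205a2, did not share the pattern, at 12.74 and 12.51 (-0.23). Gm20878 was at 0.63 and Ccl27a at -0.09. Of the 9 genes placed in this order 3 were 2-fold apart. Gm3893, Fam205a2, and the Ccl19 group have near-identical copies, so a probe may read several of them, and their values are uncertain as values of single genes.

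The 18 called genes with 2 or more usable probes were called on the mean of those probes, so agreement among the probes is no separate check. In 11 of the 18 each probe was 2-fold apart in the same direction. These were Gm3893, Fam205a2, Ccl19, Spint1, Lmo7, Aurkaip1, Cwc22, and Frem3, higher at 10 μM, and Zic4, Mmel1, and Xlr3b, lower. Spint1, an inhibitor of membrane serine proteases, was at 1.52 and 1.79 on its 2 probes. Lmo7, an actin- and junction-associated protein, went from 8.81 to 10.34 (1.53), and Aurkaip1, a mitochondrial ribosomal protein, at 1.39 and 1.20. Mmel1, a membrane metallopeptidase related to neprilysin, was at -1.37 and -1.34. In Cdk14, a cyclin-dependent kinase, the probes disagreed in size: 1 went from 10.74 to 13.28 and the other from 13.84 to 14.12, so that its mean ratio of 1.41 rested on the dimmer probe. In Stk32a the probes gave 2.63 and 0.21, and in Wdtc1 2.42 and 0.11.

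Read over all genes with 2 or more usable probes, with 1 probe held apart to set the call, agreement was weaker. When the first probe of each of these 3886 genes set the call, 49 genes were 2-fold apart. The median of their further probes had the same direction in 35 (71.4%), against 60.3% over all 3886 genes, was 2-fold in that direction in 11 (22.4%), and was under 1.5-fold in 37. Adat1, for example, was at -2.09 on its first probe and 0.34 on the other, and Pnpt1 at 1.31 and -1.62. In 79 genes a probe passed 2-fold while the mean of the gene did not. The 175 called genes with 1 usable probe, 94 higher and 81 lower, had no such check.

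**Figure D4:**
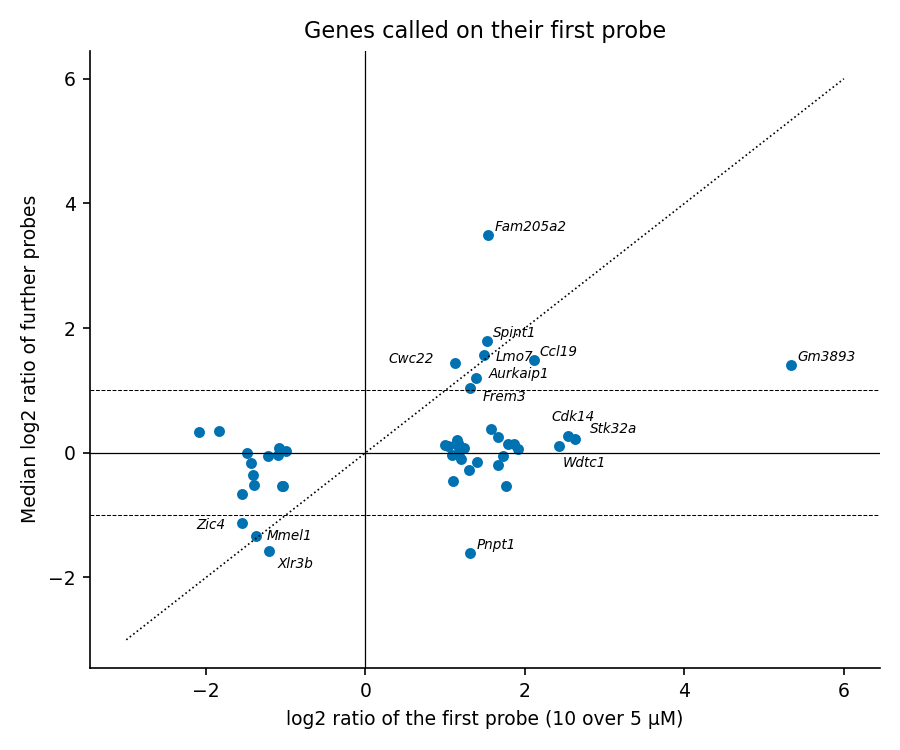
Median log2 ratio of the further probes (vertical axis) against that of the first probe (horizontal axis), for the 49 genes whose first probe was at least 2-fold apart between 10 and 5 μM Aβ; dashed lines mark 2-fold and the dotted line equality. Most points lie near 0 on the vertical axis, and 11 lie past 2-fold in the direction of the first probe, among them Gm3893, Fam205a2, Spint1, Lmo7, Zic4, and Xlr3b.

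Among the called transcription factor genes 7 were higher and 6 lower at 10 μM, against 56.0% higher among all calls. The group holds called genes only, was formed after their values were seen, and has no count of measured members. Runx1, a factor of blood cell development that microglia can also express, read 4.60 at 5 μM and 7.29 at 10 μM (2.69). Its other probe, from a different transcript, read 4.25 and 5.02 and was not well above background at 5 μM. Foxo3, a forkhead factor held out of the nucleus by insulin signalling, read 4.67 and 6.81 (2.14) and was the only gene past 2-fold among 23 of insulin and IGF signalling, whose median was 0.05. The next in that list were Pdk1 at 0.50 and Igfbp6 at -0.49. Both Runx1 and Foxo3 were dim at 5 μM and were highest of the ICR arrays at 10 μM. Lower at 10 μM, besides the Iroquois genes and Zic4, were Spib, a lymphoid ETS factor, at 7.03 and 5.22 (-1.81), and Lhx3, a LIM factor of motor neurons and pituitary, at 6.70 and 5.46 (-1.25).

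Of the called genes, 7 encode secreted growth and differentiation signals, 5 higher and 2 lower, against 56.0% higher among all calls. Ccn4 and Wnt2, of WNT signalling, read 4.48 and 5.00 at 5 μM and 6.57 and 6.69 at 10 μM. Rspo1, which enhances WNT signals at the receptor, read 8.40 and 10.14 (1.75), but reached 10.92 with streptozotocin at 2.5 mg/kg. Nog, the BMP antagonist noggin, read 6.62 and 8.24 (1.63) and was highest of the ICR arrays at 10 μM. Lower was Gdf11, a TGF-beta family ligand, at 6.99 and 5.86 (-1.12).

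Enzymes, transporters, and matrix genes filled most of the other groups, which hold called genes only and were formed after their values were seen. Over all calls 56.0% were higher, and none of these groups has a count of its measured members. Metabolic enzymes were 7 higher and 4 lower. Nnmt, which methylates nicotinamide, read 5.41 at 5 μM and 7.14 at 10 μM (1.73). On the other ICR arrays it read 4.17, 4.95, and 4.86, with 2 of these well above background. Enpp1, an ectoenzyme that makes pyrophosphate, read 5.59 and 7.43 (1.84), and Akr1e1, an aldo-keto reductase, 8.34 and 10.39 (2.04). All 3 were highest of the ICR arrays at 10 μM. Extracellular matrix and adhesion genes were 3 higher and 7 lower, the latter led by Spp1 and Efemp1 of the meningeal list, with Comp, cartilage oligomeric matrix protein, at 8.12 and 6.81 and Adamts4, a protease of aggrecan, at 10.02 and 8.63. Transporters and channels were likewise 3 higher and 7 lower, among them Slc22a7, an organic anion transporter, at 6.75 and 4.95 (-1.80).

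Proteases and their inhibitors were even, with 4 in each direction. Opsin and phototransduction genes were 3 lower and none higher: Sag, the rod arrestin, read 7.60 and 6.47, Pde6g, the rod phosphodiesterase subunit, 7.43 and 5.70, and Opn3, encephalopsin, 7.26 and 5.58. Counts in other groups were 6 higher and 1 lower of DNA and RNA processing, 2 higher and 1 lower of olfactory receptors, and 1 higher and 2 lower of the host genes of small nucleolar RNAs. These groups too hold called genes only, of which 56.0% were higher, and have no count of measured members. For 81 of the 193 called genes no group was assigned.

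Synaptic genes had a median of 0.11 over 68 measured, with 48 above 0. Cbln2, a synapse-organizing cerebellin, was the only one past 2-fold, at 5.65 and 7.19 (1.54), and at 7.58, 7.26, and 6.56 on the other ICR arrays, so that the 5 μM array was the lowest. Dlg4, the scaffold PSD-95, read 11.98 and 12.75 (0.76), and Camk2a, the kinase of synaptic plasticity, 12.32 and 12.97 (0.65). For these 3 genes 10 μM lay within the range of the other arrays and 5 μM below it. Snap25 and Syp, of the synaptic vesicle machinery, were at 0.00 and -0.05. Neuropeptide genes had 3 of 26 past 2-fold, all lower, against 0.578% lower over all genes, and 11 of the 26 were above 0. The 3 were Nppa (atrial natriuretic peptide) at 7.31 and 5.25, Tac2, already counted with the habenula, and Avp (vasopressin) at 6.77 and 5.38. Oxt, oxytocin, followed at -0.99, and the list median was -0.04. Hypothalamic genes, which include Avp and Oxt, had a median of -0.56 over only 6 measured, and between -0.62 and -0.16 under the alternatives. Activity-regulated immediate early genes had a median of 0.07 over 37, with none past 2-fold, and 30 genes of amyloid precursor processing and amyloid clearance a median of -0.10, also with none.

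Large lists of bright genes lay near 0 after quantile normalization, which gives the arrays 1 distribution. The median was 0.04 over 82 genes of oxidative phosphorylation, -0.05 over 18 of glycolysis, and 0.01 over 80 cytosolic ribosomal proteins, and none of these genes was 2-fold apart. Under the alternatives these medians lay between -0.08 and 0.15. Whether the normalization had a part in them was not tested.

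The largest single ratio in either direction was that of Gm5741, at 10.39 with 5 μM and 4.98 with 10 μM (-5.40, 42.4-fold lower). On the other ICR arrays it read 5.54, 5.24, and 4.90, so it stood out on the 5 μM array alone. Baiap2l1, an adaptor of membrane and actin, read 8.99 and 6.81 (-2.19). Elsewhere it read 9.08, 4.43, and 6.95, and was well above background on 2 of those arrays. Catsper4, of the sperm calcium channel, read 7.16 and 4.87, and Cyp2f2, a cytochrome P450 of the airway, 8.34 and 6.31. Among those higher at 10 μM, Ell3, an RNA polymerase elongation factor, read 4.91 and 7.85 (2.93), and Haus2, a subunit of the augmin complex of the spindle, 4.22 and 6.71 (5.64-fold). Neither has a role particular to brain. On the other ICR arrays Ell3 read 3.76, 3.71, and 4.93, and it was well above background on only 1 of them. Most of these genes are dim on at least 1 array and rest on 1 probe.

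The other ICR arrays are not controls, and they give only a range of values beside which each Aβ array can be read. Among the 108 genes higher at 10 μM, the 10 μM array lay above the range of the streptozotocin and scopolamine arrays in 75 and the 5 μM array below it in 57. The 10 μM array was farther from their median in 71 and the 5 μM array in 37. Among the 85 genes lower at 10 μM the order was turned, since the 5 μM array was farther in 65 and the 10 μM array in 20, and the 5 μM array lay above the range in 66. The filter asked for a signal well above background on the Aβ arrays only, and all 3 other arrays passed it in 75 of the 108 and 71 of the 85 genes, so the floor limits how far the dimmer Aβ array can lie below the others. The 10 μM array alone lay outside the range in 32 of the 108 and 17 of the 85 genes, and the 5 μM array alone in 23 and 24. Over all genes these shares were 15.4% and 22.7%. The counts above or below the range, and of the farther array, have no such share over all genes. The called genes were chosen for a 2-fold difference between the Aβ arrays, which by itself favours values outside the range. These counts therefore do not say which Aβ array departed from untreated tissue.

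Genes well above background on only 1 of the 2 arrays have a bound and no ratio. There were 189 at 10 μM only, of which 165 were at least 2-fold apart, and 856 at 5 μM only, of which 102 were. The unequal numbers go with the lowest signal well above background, which was 3.91 at 5 μM and 4.59 at 10 μM after normalization, and with the share of probes flagged, 67.5% and 63.5%. The largest bounds at 10 μM were those of Ear1, an eosinophil-type ribonuclease (at least 14.9-fold), Olfr224, an olfactory receptor (at least 13.3-fold), Wfdc15a (at least 12.7-fold), and the posterior homeobox gene Hoxa13 (at least 12.1-fold). At 5 μM they included those of Zfp979 (at least 13.5-fold), Pou4f1, and Masp2, a serine protease of the lectin pathway of complement (at least 10.4-fold, 2 probes). Masp2 read 7.97 at 5 μM and 7.18, 6.52, and 7.22 on the other ICR arrays, so for this gene the 10 μM array was the one that differed.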

How the data were processed

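RNA pooled from 3 mice per array was hybridized to 1-colour Agilent mouse arrays. The authors deposited scanner intensities of each spot, with flags and a processed signal, and a matrix of processed intensities of the same arrays whose scale and centring are not given in the sources used here; its columns gave a median log2 ratio of -0.13. The matrix held 0 columns of other samples and was used as an alternative only. From the deposited intensities, the processed signal was put on a log2 scale, outlier spots were left out (156 to 191 on the ICR arrays), spots of a probe were averaged, and all probes of the 12 arrays were quantile normalized. The methods of the study use this normalization after keeping probes 1.4-fold above local background, which was an alternative here. No spot was saturated. Probes flagged well above background on both arrays were averaged per gene. Accessions on the array were matched to the RefSeq gene table of GRCm38.p6, which named 27508 of 39429 probes (69.8%); 5271 probes used had no symbol.

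With 1 array per concentration no test was possible, and precision is limited by the number of arrays. Genes named were the 10 largest ratios in each direction, over all genes and over genes with 2 or more agreeing probes, list members past 2-fold (up to 6 per list and direction), the 4 largest bounds in each direction, markers of lists that moved, and sex-linked genes; not all of them are described, and a few are left out of the text. Others, such as neighbouring genes and members of functional groups, were added with their values known. The members and lists were chosen with earlier results of these data known. A bound sets the bright array against the higher of the dim array's lowest signal well above background and the gene's own signal there.

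Alternatives were other normalizations (75th percentile, 5 ICR arrays, cyclic loess), normexp with an offset of 50 on median foreground and background (the files hold no mean signal), the matrix, other filters, probe summaries, and thresholds. Scripts were tested on simulated data. Python 3.11.15, numpy 2.4.6, pandas 2.3.3, R 4.3.3, limma 3.58.1, and matplotlib 3.10.9 were used.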

Additional observations from a re-analysis of the deposited data

How the results depend on the processing

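The counts of genes higher and lower at 10 μM (108 and 85) depended on how dim probes were handled. They were 30 and 23 with signals at least 4 times the background on both arrays, 32 and 24 with normexp, 648 and 692 with no filter, 575 and 621 with probes 1.4-fold above background on all 12 arrays, and, chosen after seeing the data, 644 and 689 with that filter on both arrays. The deposited matrix gave 35 and 88, and 45 and 53 once its median was set to 0, a step chosen after seeing the data. Thresholds of 1.5-fold and 3-fold gave 379 and 390, and 37 and 26. Other normalizations and probe summaries gave 93 to 131 higher and 85 to 119 lower. Without the habenula, thalamus, meningeal, myelin, and red blood cell lists, also chosen after seeing the data, 107 and 69 were left.

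Of 60 named genes past 2-fold, 59 kept their direction under every alternative that measured them, and 30 stayed past 2-fold in each. The exception in direction was Spag16, at 1.07 and at -0.39 with the median of all probes. The median of the medial habenula list ranged from -1.34 to -0.59, of meningeal genes from -0.58 to -0.45, and of red blood cell genes from 0.61 to 0.79; the cause of these ranges was not tested. No paired analysis was possible because each concentration has 1 array, and none could be left out.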

Other observations

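Among the 5271 probes without a symbol that were well above background on both arrays, 80 (1.52%) were at least 2-fold higher and 55 (1.04%) at least 2-fold lower at 10 μM.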
